A study of Homo sapiens with 6 samples.

Results

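The genes described here encode the machinery that carries proteins into mitochondria. They were taken by name from the deposited count table: protein-coding genes whose symbol starts with TIMM or TOMM followed by a digit, together with PAM16, PMPCA, PMPCB, SAMM50, MTX1, MTX2, MTX3, CHCHD4, GRPEL1 and GFER. The rule used no measured value and gave 35 genes of the 58735 in the table. RNA was sequenced from HCT-8 cells, a human colorectal cancer line grown in monolayer. The tested cells received 5-fluorouracil (5-FU), a fluoropyrimidine drug that inhibits thymidylate synthase, at the concentration that inhibits by 10% (IC10). Control cells received no treatment, and each group had 3 libraries. The sources used here give neither the molar concentration nor the time on the drug. All libraries come from a single cell line. The labels do not state that the replicates were cultured separately, so the p-values reflect the spread among these 6 libraries, and that spread may be technical.

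Nearly all mitochondrial proteins are made in the cytosol and imported. Precursors are recognised by receptors of the TOM complex and cross the outer membrane through its TOMM40 channel. From there presequence-bearing precursors pass the TIM23 complex of the inner membrane, pulled by a motor around the matrix HSP70 and cut by the processing peptidase, whereas carrier proteins travel with small TIM chaperones to the TIM22 complex. Beta-barrel proteins are inserted in the outer membrane by the SAM complex, and small cysteine-rich proteins are trapped in the intermembrane space by the CHCHD4 and GFER disulfide relay.

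In control cells the 34 import genes with enough reads to be tested spanned a wide range of levels, and after 5-FU 28 of them were lower and 1, PAM16, was higher. The other 5 tested genes, TOMM20L, TOMM5, TIMM10B, TIMM29 and TIMM23B, did not pass the threshold, and TOMM6 had a count of 0 in every library. A change was called at an adjusted p under 0.05 from edgeR's quasi-likelihood test, adjusted over all 19771 genes tested. By the same rule 33.9% of all tested genes were lower and 36.3% were higher, 70.2% in all. The median log2 fold change of the tested import genes was -0.98, so the gene at the median stood at 50.6% of its control level, whereas all tested genes had a median of 0.09. In bulk RNA, fewer cells with a transcript and less of it per cell cannot be told apart.

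Promoter sequences of 4 import genes are shown because they hold, near their start sites, the motifs counted below, and because they contrast genes that were lower after 5-FU with genes that did not pass the test. CHCHD4, the oxidoreductase of the disulfide relay, was lower. TIMM29, a subunit of the TIM22 complex, was not called. TIMM23, the central subunit of the TIM23 complex, was lower, whereas its close copy TIMM23B was not called. Each sequence is RefSeq's for build GRCh38.p14, 5′ to 3′ on the strand of the gene, and holds the 160 bases that end just before the gene's first annotated exon. Capitals mark the NRF1 motif, which is GCGCA, any base and GCGC, or the ETS motif CCGGAAG, read on either strand. The 4 windows lie at chr3:14124871-14125030 on the minus strand for CHCHD4, chr19:10928573-10928732 on the plus strand for TIMM29, chr10:45972289-45972448 on the plus strand for TIMM23 and chr10:49941873-49942032 on the plus strand for TIMM23B.
CHCHD4: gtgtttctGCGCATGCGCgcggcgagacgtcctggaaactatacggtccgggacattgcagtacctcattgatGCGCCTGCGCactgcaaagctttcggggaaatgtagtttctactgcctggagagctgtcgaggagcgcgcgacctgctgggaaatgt
TIMM29: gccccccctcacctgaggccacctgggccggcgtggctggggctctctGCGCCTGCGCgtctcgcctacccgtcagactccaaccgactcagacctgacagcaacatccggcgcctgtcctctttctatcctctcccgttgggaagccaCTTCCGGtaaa
TIMM23: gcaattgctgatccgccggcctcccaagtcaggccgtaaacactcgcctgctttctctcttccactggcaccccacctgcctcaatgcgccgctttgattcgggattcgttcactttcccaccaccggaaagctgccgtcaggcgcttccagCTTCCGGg
TIMM23B: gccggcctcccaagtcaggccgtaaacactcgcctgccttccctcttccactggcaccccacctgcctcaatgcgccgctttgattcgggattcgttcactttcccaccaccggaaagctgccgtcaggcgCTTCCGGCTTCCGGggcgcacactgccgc

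RefSeq promoters of 300 bases, 250 before and 50 after the start, were found for 32 of the 35 import genes and searched on both strands beside those of 15842 protein-coding genes. The ETS motif was in 14 import promoters, 43.8% of them, and in 14.2% of all promoters. The NRF1 motif, that of a regulator known for its nuclear-encoded mitochondrial targets, was in 7 import promoters, 21.9%, and in 8.57% of all. The YY1 motif, AAGATG directly followed by GCGGC, was in 3 import promoters, 9.38%, and in 1.37% of all. The E-box CACGTG was in 12.5% of import promoters and 8.88% of all, and CCAAT was in 34.4% and 36.4%. The 15842 genes were not chosen by their level in these cells, so the shares do not compare import genes with genes of like level. TIMM23 and TIMM23B, whose promoters are nearly identical, both count among the 14 with the ETS motif. No match of 1 motif overlapped a match of another. Of the 14 genes with the ETS motif, 10 were lower after 5-FU, 3 were not called and 1, TOMM6, was not tested. Of the 7 genes with the NRF1 motif, 5 were lower, PAM16 was higher and TIMM29 was not called, so genes with either motif were found among those that were lower and those that were not. All 11 genes with CCAAT, all 4 with the E-box and all 3 with the YY1 motif were lower. These counts stand beside 28 lower of all 34 tested import genes. MTX3, which has both the E-box and the YY1 motif, was not called lower under some alternatives. The promoters of TIMM23 and TIMM23B are 94.4% identical over their alignment, with 5 mismatched bases and 12 gap positions. TIMM23 was called lower after 5-FU and TIMM23B was not called, and the ratio of their counts is given below with its limits. The motifs counted here are matches of letters in a window and show no binding.

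The libraries differed between the groups in the share of mitochondrially encoded RNA. Counts summed to 18459939 to 20613228 in the 5-FU libraries and to 21659252 to 23495607 in the control libraries. Transcripts of the mitochondrial genome took 26.7% ± 1.59 of the counts after 5-FU and 4.80% ± 0.12 in control cells (mean ± SD, n = 3 each, exact two-sided permutation p = 0.1, the smallest that 3 against 3 allows). Leaving those transcripts out with TMM factors kept changed little: 6783 genes were lower and 7280 higher, against 6706 and 7171 with them, and 28 import genes were lower with an import median of -0.998. The scaling factors mattered more. With the mitochondrial transcripts left out and plain totals of the rest in place of TMM factors, which changes both choices and was chosen after seeing the data, the median of all tested genes was 0.60, with 3924 genes lower and 10762 higher. With upper-quartile factors that median was 0.45, with 4614 genes lower and 9602 higher. Set against the median of all genes, the import median was -1.08 in the TMM-scaled test, -1.09 with the mitochondrial transcripts left out, under TMM factors and under plain totals, and -1.07 with upper-quartile factors. Other scaling factors move all genes by nearly the same amount. These differences could therefore hardly change, and they do not show which scaling is right. Under plain totals without the mitochondrial transcripts 22 of the 28 genes were still called lower, and TIMM44 (adjusted p = 0.117), TIMM17B (adjusted p = 0.153) and MTX1 (adjusted p = 0.0845) were among those that were not. Of 9 colon epithelium markers 8 were at 1 CPM (counts scaled to library size with TMM factors) or more in every library, KRT20 being the exception. The 9 summed to 3187 to 3857 CPM in the 5-FU libraries and 4257 to 5700 CPM in the control libraries. Fibroblast markers summed to 34.3 to 64.6 CPM in the 5-FU libraries and 15.7 to 20.2 CPM in the control libraries, most of it COL1A1, while DCN and LUM were at 0 in all 6. Endothelial markers summed to 4.26 to 6.21 CPM after 5-FU and 2.24 to 3.25 CPM in control cells, and leukocyte markers to 5.48 to 7.34 and 6.82 to 7.35 CPM. The part of these other markers in the results was not tested.

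Summed over the import genes, CPM were 908, 1111 and 1150 in 5-FU replicates 1 to 3, against 2368, 2175 and 2468 in the control replicates. The groups did not overlap. Import transcripts took 0.109% ± 0.0127 of all counts after 5-FU and 0.225% ± 0.00643 in control cells, and of the counts that are not mitochondrially encoded 0.149% ± 0.0145 and 0.236% ± 0.00648 (mean ± SD, n = 3 each). The libraries of each group did not move evenly: 5-FU replicate 1 held the lowest 5-FU value for 22 of the 28 lower genes.

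Gene by gene, 28 import genes had every 5-FU library below every control library, 1 had every 5-FU library above, and 5 overlapped. Over all tested genes those shares were 35.9% below and 38.4% above. Of the 28 genes, 16 were lower by 2-fold or more and 12 by less, and 24 had an adjusted p under 0.001 in the edgeR test. Import genes are fairly abundant, so they were also set beside genes of like level. Of the 31 import genes at a mean of 10 CPM or more, 27 were lower and 1 higher with a median log2 fold change of -1.03. Among 10214 protein-coding genes at that level, 54.7% were lower and 19.7% higher with a median of -0.42. Across all tested genes 16.8% had a log2 fold change at or below the import median.

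**Figure D1:**
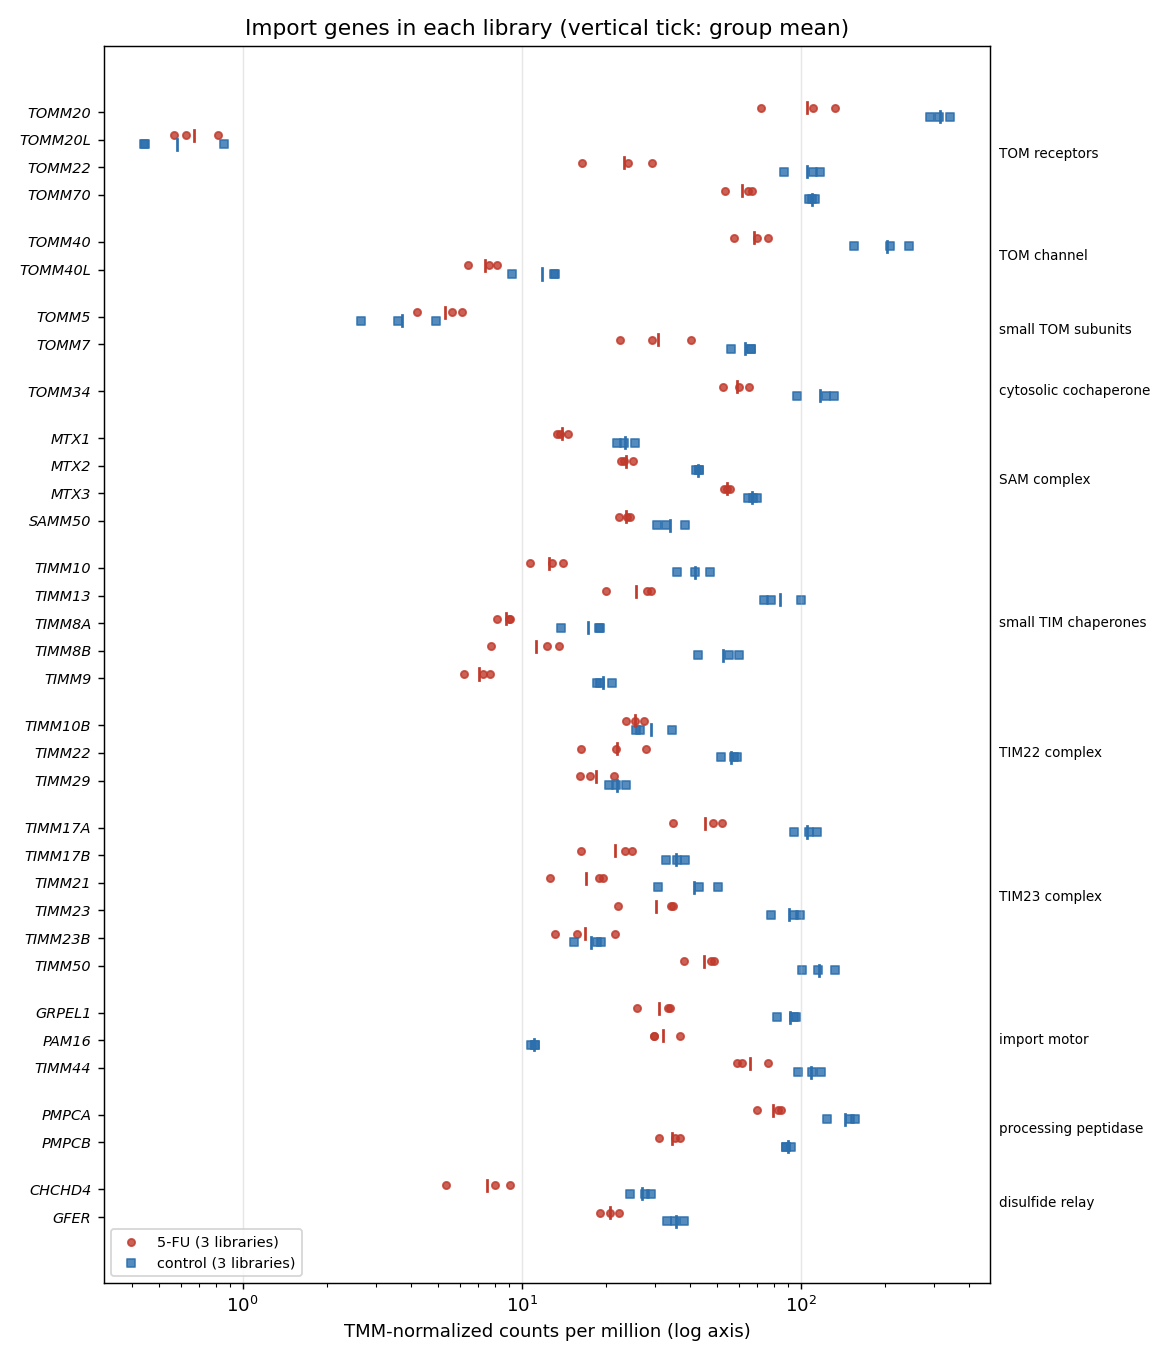
CPM per library on a log axis for the 34 tested import genes by complex, with 5-FU libraries as circles above control libraries as squares and a tick at each group mean. For 28 genes the 5-FU points lie below all control points, and for PAM16 they lie above, at 29.7 to 37.0 CPM against 10.8 to 11.2 CPM.

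Of the 4 receptors of the TOM complex, 3 were lower and TOMM20L was not called, with a median log2 fold change of -1.21. TOMM22, the central receptor that also organises the complex (chr22:38681948-38685421), had 16.5, 24.0 and 29.3 CPM in the 5-FU libraries, against 111, 87.3 and 117 CPM in the control libraries. Every 5-FU library was far below every control library, and TOMM22 averaged 23.3 ± 6.43 CPM after 5-FU and 105 ± 15.8 CPM in control cells. It was 4.51-fold lower, with a log2 fold change of -2.17 (SE 0.20, edgeR adjusted p = 3.97e-06). TOMM20, the presequence receptor (chr1:235109336-235128936), had 72.1, 111 and 133 CPM after 5-FU, against 313, 342 and 291 CPM in control cells, a log2 fold change of -1.58 (SE 0.19, edgeR adjusted p = 2.81e-05). TOMM20 had the highest mean CPM of the import genes in both groups, and 5-FU replicate 1 was again its lowest library. Scaled to exonic length, its 5-FU libraries overlapped those of TOMM34. TOMM70, the receptor that takes hydrophobic precursors from cytosolic chaperones, fell less, with 53.5 to 66.8 CPM after 5-FU against 107 to 113 CPM in control cells and a log2 fold change of -0.84 (SE 0.12, edgeR adjusted p = 8.1e-05). TOMM20L, a close relative of TOMM20, was barely read, with counts of 16, 12 and 12 in the 5-FU libraries and 10, 19 and 9 in the control libraries, with a log2 fold change of 0.19 (SE 0.40, edgeR adjusted p = 0.68).

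TOMM40, the channel of the outer membrane, had 57.6, 76.5 and 69.5 CPM in the 5-FU libraries, against 209, 155 and 246 CPM in the control libraries. The groups were separate although the control libraries varied, at a log2 fold change of -1.58 (SE 0.17, edgeR adjusted p = 1.31e-05). TOMM40L, its less abundant paralog, had 6.44 to 8.19 CPM after 5-FU against 9.26 to 13.1 CPM in control cells, a log2 fold change of -0.67 (SE 0.19, edgeR adjusted p = 0.00746). This call was lost with upper-quartile factors (adjusted p = 0.155), under a minimum mean count of 50 (adjusted p = 0.065) and with mitochondrial transcripts left out under plain totals (adjusted p = 0.401).

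The small TOM subunits, single-helix proteins around the channel, showed no common direction. TOMM7, which tunes assembly of the complex, had 22.5, 29.4 and 40.6 CPM after 5-FU, against 56.4, 66.4 and 66.5 CPM in control cells. All 5-FU libraries were below the controls, with a log2 fold change of -1.03 (SE 0.19, edgeR adjusted p = 0.000443). TOMM5 had 5.65, 6.10 and 4.21 CPM after 5-FU and 4.93, 2.67 and 3.60 CPM in control cells, which overlap, with a log2 fold change of 0.51 (SE 0.26, edgeR adjusted p = 0.0972). TOMM5 was called higher under 5 of the 20 alternatives, among them without control replicate 1 (adjusted p = 0.035). TOMM6 had no read in any library, which is taken up with the overlapping genes below. TOMM34, a cytosolic cochaperone that binds HSP70 and HSP90, had 52.6, 65.3 and 60.3 CPM after 5-FU against 123, 97.1 and 132 CPM in control cells, with no overlap and a log2 fold change of -0.98 (SE 0.14, edgeR adjusted p = 8.48e-05).

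The SAM complex, which folds beta-barrel proteins such as TOMM40 into the outer membrane, had 4 of 4 genes lower, but its median log2 fold change, -0.64, was smaller in size than that of most other groups. MTX2, a metaxin on the cytosolic side of the complex, had 22.7, 23.2 and 25.1 CPM in the 5-FU libraries, against 43.4, 42.2 and 43.4 CPM in the control libraries. Both groups were tight and far apart, with a log2 fold change of -0.86 (SE 0.11, edgeR adjusted p = 4.96e-05). MTX1 had 13.4 to 14.7 CPM after 5-FU against 21.9 to 25.5 CPM, a log2 fold change of -0.76 (SE 0.13, edgeR adjusted p = 0.000362). SAMM50, the barrel that does the insertion, had 22.4 to 24.5 CPM after 5-FU against 30.6 to 38.4 CPM, a log2 fold change of -0.53 (SE 0.13, edgeR adjusted p = 0.00345), a call that was lost with upper-quartile factors (adjusted p = 0.259), under a minimum mean count of 50 (adjusted p = 0.0704) and with mitochondrial transcripts left out under plain totals (log2 fold change -0.036, adjusted p = 0.807). MTX3 had 52.9 to 56.0 CPM after 5-FU against 64.6 to 69.5 CPM, and its log2 fold change of -0.30 (SE 0.11, edgeR adjusted p = 0.0229) turned to 0.05 with upper-quartile factors and to 0.18 with mitochondrial transcripts left out under plain totals. Without 5-FU replicate 2 MTX3 had an adjusted p of 0.076, and without control replicate 1 of 0.0557.

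The small TIM chaperones, which shield hydrophobic precursors in the intermembrane space, were the group with the lowest median log2 fold change, -1.70, and 5 of 5 were lower. TIMM8B (chr11:112084800-112086798) had 7.79, 12.3 and 13.6 CPM after 5-FU, against 55.2, 42.8 and 60.1 CPM in control cells. No other import gene had a lower log2 fold change, -2.23 (SE 0.20, edgeR adjusted p = 4.35e-06), or 4.68-fold, and the groups were far from overlap. TIMM10, which forms the hexameric carrier chaperone with TIMM9, had 10.7, 12.8 and 14.1 CPM after 5-FU, against 42.0, 36.1 and 47.2 CPM in control cells. Its groups were likewise apart, with a log2 fold change of -1.73 (SE 0.15, edgeR adjusted p = 3.49e-06). TIMM13, partner of the TIMM8 proteins, had a log2 fold change of -1.70 (SE 0.17, edgeR adjusted p = 6.78e-06), with 20.0 to 29.2 CPM after 5-FU and 74.0 to 100.1 CPM in control cells. TIMM9 had a log2 fold change of -1.47 (SE 0.15, edgeR adjusted p = 9.11e-06), with 6.21 to 7.72 CPM after 5-FU and 18.6 to 21.1 CPM in control cells. TIMM8A, the gene of the deafness-dystonia syndrome, moved least of the 5, at -0.98 (SE 0.17, edgeR adjusted p = 0.000304), with 8.14 to 9.12 CPM after 5-FU and 13.9 to 19.2 CPM in control cells.

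Short transcripts were frequent at the bottom of the ranking, but not all short genes were low. TOMM20L, the shortest tested gene at 620 bases and barely read, was at 0.19, and TIMM29, at 1863 bases, was at -0.25, both uncalled. TIMM8B, TOMM22, CHCHD4, TIMM10 and TIMM13 had the 5 lowest log2 fold changes, and their exonic lengths ran from 777 to 2191 bases, against a median of 3125 for the tested import genes. With a smooth trend on gene length removed from each library, their log2 fold changes were -2.63 for TIMM8B, -2.35 for TIMM10, -2.24 for TOMM22, -2.01 for CHCHD4 and -1.82 for TIMM13, so none became smaller in size.

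In the TIM22 complex, which inserts carriers into the inner membrane, only the channel passed the test among the 3 genes. TIMM22 had 16.3, 21.9 and 28.0 CPM in the 5-FU libraries, against 57.9, 51.8 and 59.0 CPM in the control libraries. The groups did not overlap, at a log2 fold change of -1.35 (SE 0.17, edgeR adjusted p = 4.08e-05). TIMM10B, a small TIM bound to that complex, had 23.6, 27.5 and 25.4 CPM after 5-FU and 34.6, 26.6 and 25.8 CPM in control cells, with a log2 fold change of -0.19 (SE 0.14, edgeR adjusted p = 0.267). TIMM29, a subunit known from metazoans, had 21.4, 16.2 and 17.7 CPM after 5-FU and 23.6, 20.5 and 21.8 CPM in control cells, with a log2 fold change of -0.25 (SE 0.15, edgeR adjusted p = 0.139). Both ranges overlapped, and both estimates turned positive, uncalled, with upper-quartile factors, with mitochondrial transcripts left out under plain totals and with a mean count of at least 50, while TIMM29 was called lower under 6 of the 20 alternatives.

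Of the 6 genes of the TIM23 complex, the presequence translocase of the inner membrane, 5 were lower, with a median log2 fold change of -1.25. TIMM23 (chr10:45972449-46003734), whose promoter is printed above, had 22.1, 34.3 and 34.8 CPM after 5-FU, against 94.4, 78.6 and 99.9 CPM in control cells. All 5-FU libraries were below all control libraries, with a log2 fold change of -1.58 (SE 0.17, edgeR adjusted p = 1.35e-05). TIMM50, the receptor that hands presequences from the outer membrane to the channel, had 38.4, 47.6 and 48.9 CPM after 5-FU, against 115, 101 and 133 CPM in control cells. It too was separate between the groups, with a log2 fold change of -1.38 (SE 0.14, edgeR adjusted p = 8.44e-06). TIMM21, which in yeast links the translocase to the TOM complex, had a log2 fold change of -1.29 (SE 0.20, edgeR adjusted p = 0.000182). TIMM17A, a channel-forming subunit and a target of stress-dependent turnover, had a log2 fold change of -1.22 (SE 0.16, edgeR adjusted p = 3.52e-05). TIMM17B, its paralog, had a log2 fold change of -0.73 (SE 0.16, edgeR adjusted p = 0.0017). TIMM23B had 13.1, 21.7 and 15.8 CPM after 5-FU and 18.6, 19.3 and 15.4 CPM in control cells, which overlap, with a log2 fold change of -0.08 (SE 0.19, edgeR adjusted p = 0.731) that turned positive under 5 alternatives, 0.09 without 5-FU replicate 1 among them.

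The import motor was the only group with members called in both directions. GRPEL1, the nucleotide exchange factor of the matrix HSP70, had 25.8, 34.2 and 33.5 CPM after 5-FU, against 96.7, 82.2 and 95.0 CPM in control cells, a log2 fold change of -1.55 (SE 0.14, edgeR adjusted p = 3.75e-06). TIMM44, which tethers HSP70 to the channel, had 59.0 to 76.6 CPM after 5-FU against 98.1 to 118 CPM in control cells, a log2 fold change of -0.72 (SE 0.13, edgeR adjusted p = 0.000491). PAM16, the J-like protein that holds the J-protein of the motor in check (chr16:4331549-4355607, minus strand), had 37.0, 29.7 and 29.9 CPM after 5-FU, against 11.2, 10.8 and 11.2 CPM in control cells. All 5-FU libraries were above the tight control group, 2.91-fold on average, with a log2 fold change of 1.54 (SE 0.14, edgeR adjusted p = 4.1e-06). PAM16 was called higher under all 20 alternatives, with log2 fold changes of 1.23 to 2.03.

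The processing peptidase removes presequences in the matrix, and both of its subunits were lower. PMPCB, the catalytic subunit, had 31.2, 35.5 and 36.9 CPM in the 5-FU libraries, against 88.9, 92.5 and 88.5 CPM in the control libraries. Neither group varied much, and the log2 fold change of -1.38 (SE 0.11) had the smallest adjusted p of the import genes, 2.61e-06 by edgeR. PMPCA, the subunit that binds the presequence, had 69.8 to 85.0 CPM after 5-FU against 125 to 157 CPM in control cells, a log2 fold change of -0.86 (SE 0.13, edgeR adjusted p = 0.000137). In the disulfide relay, CHCHD4 (chr3:14112077-14124870) had 5.35, 9.08 and 8.05 CPM after 5-FU, against 27.7, 24.4 and 29.0 CPM in control cells. It was 3.61-fold lower with no overlap, at a log2 fold change of -1.85 (SE 0.19, edgeR adjusted p = 8.38e-06). GFER, the sulfhydryl oxidase that reoxidises CHCHD4, had 19.2 to 22.3 CPM after 5-FU against 33.1 to 38.2 CPM in control cells, a log2 fold change of -0.78 (SE 0.12, edgeR adjusted p = 0.000188).

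**Figure D2:**
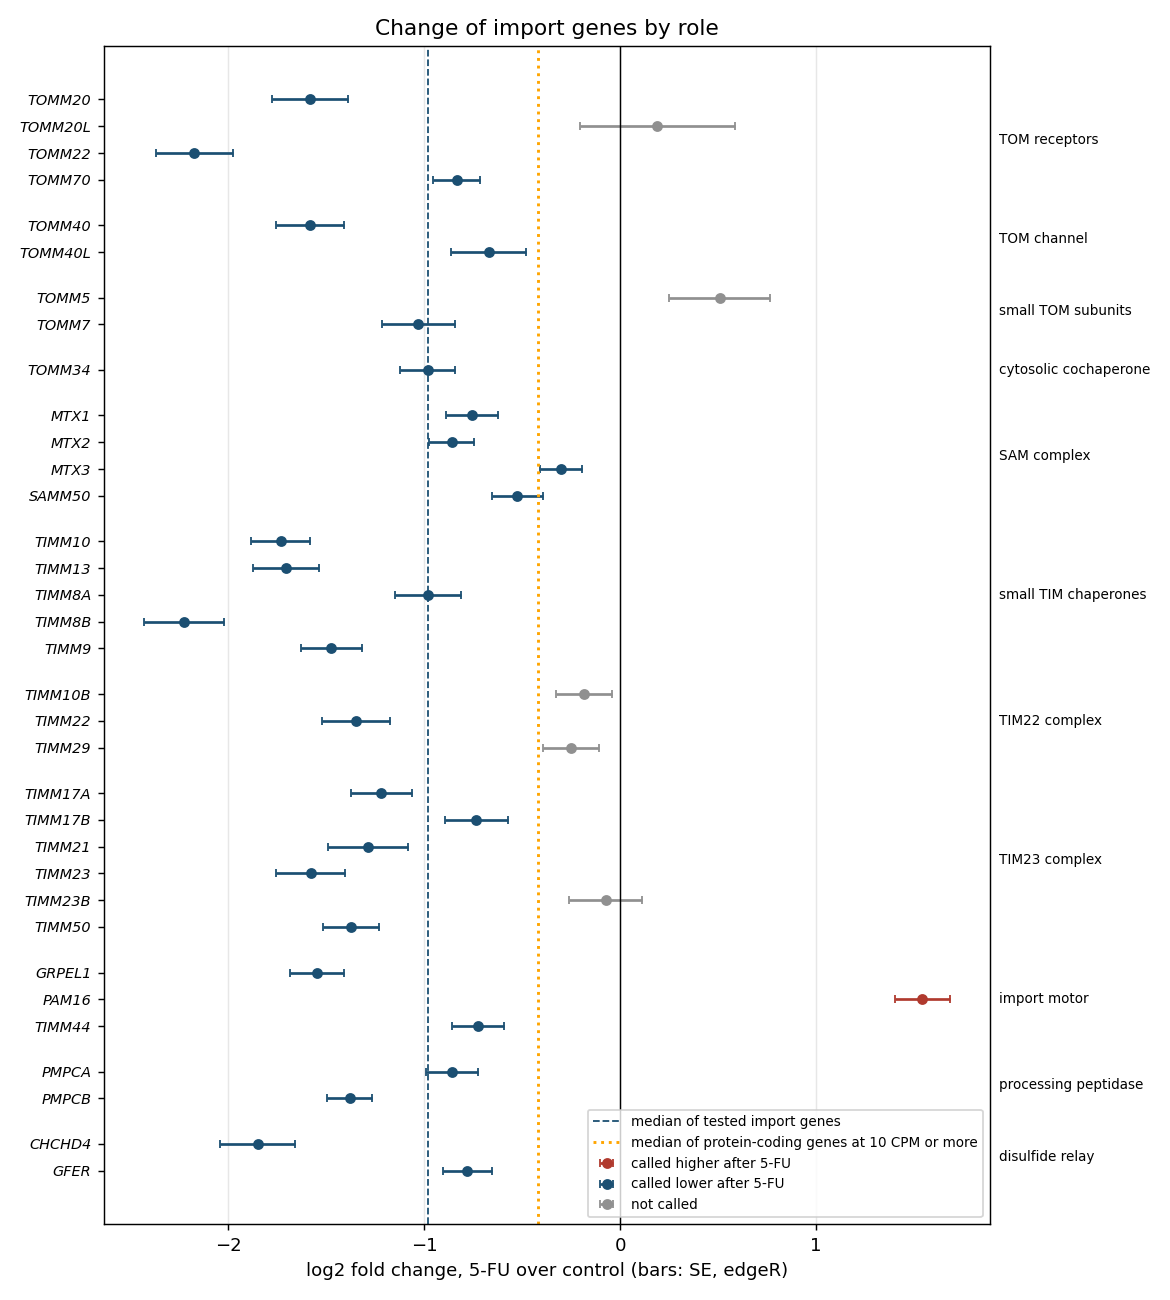
Log2 fold change, 5-FU over control, of the 34 tested import genes by complex, with bars of 1 SE, a dashed line at the import median of -0.98 and a dotted line at -0.42, the median of protein-coding genes at 10 CPM or more. The small TIM chaperones lie lowest, at -2.23 to -0.98, and PAM16 alone is called to the right of 0, at 1.54; MTX3 crosses 0 under other scalings.

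The tested genes with most of their coding bases in exons of another annotated gene were not lower, a pattern noticed after the values were seen. The count table leaves almost no reads in genes whose exons are wholly covered by others. Of 735 genes wholly covered by genes of the opposite strand 99.9% had a count of 0 in all 6 libraries, and of 1139 wholly covered on their own strand 91.9% did, against 30.3% of the other 56861 genes. Counts of a gene with partly shared exons therefore come from its unshared bases, and strand was not used to tell genes apart. TOMM6 (chr6:41787662-41789898) lies in full within exons of AL365205.1, an annotated protein-coding gene, and its counts of 0 do not show that it is silent. AL365205.1 itself had counts of 250, 184 and 169 in the 5-FU libraries and 81, 138 and 81 in the control libraries, a log2 fold change of 1.13 (SE 0.25, edgeR adjusted p = 0.0017).

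The other genes with over 50% of their coding bases in exons of other genes were TIMM10B with 100%, TOMM5 with 64.6% and PAM16 with 55.5%. Of these 3 tested genes none was lower and PAM16 was higher, whereas of the other 31 tested import genes 28 were lower and 3 were not called. Of the 25 tested genes that share no coding base, 24 were lower. The split did not hold for exonic bases as a whole: of 9 tested genes with over 15% of these shared, 6 were lower, TIMM8B with 32.3%, TIMM9 with 30.5%, TIMM13 with 28.9%, GFER with 25.9%, MTX1 with 21.9% and TOMM40L with 20.2%. PAM16 shares 451 of its 813 coding bases, and 21.9% of its exonic bases, with CORO7-PAM16, a readthrough gene that joins it to the upstream CORO7. All 3815 exonic bases of that readthrough gene are covered by CORO7 and PAM16, and it had a count of 0 in all 6 libraries. CORO7 had counts of 205, 175 and 186 in the 5-FU libraries and 198, 197 and 156 in the control libraries, a log2 fold change of 0.15 (SE 0.16, edgeR adjusted p = 0.412). The PAM16 counts, 727, 570 and 632 after 5-FU against 249, 240 and 227 in control cells, thus come from the bases it does not share, and 75.5% of its principal transcript is shared. Which PAM16 transcripts gave these reads cannot be told apart in gene counts, and the part of shared exons in the result was not tested.

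**Figure D3:**
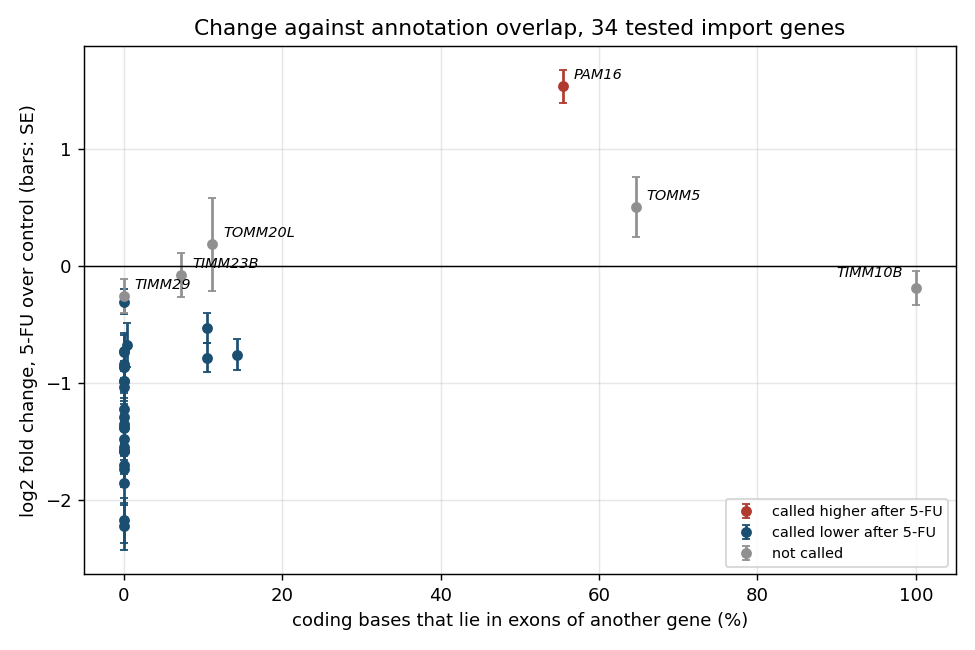
Log2 fold change, 5-FU over control, against the percent of coding bases that lie in exons of other genes, for the tested import genes, with bars of 1 SE. The 3 genes above 50% lie at -0.19, 0.51 and 1.54, and 28 of the other 31 are called lower.

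Of the 35 import genes 19 shared some 50-base word of their transcripts with another gene, and 4 shared over 10% of these words. TIMM23 shared 17.0% with TIMM23B, MTX1 shared 15.5% with the pseudogene MTX1P1, TIMM23B shared 12.4% with other genes, 6.22% with TIMM23, and TOMM40 shared 10.8%. How the reads of those stretches were split between TIMM23 and TIMM23B cannot be told from the counts. MTX1P1 had 894 counts over the 6 libraries, 37.9% of the 2356 of MTX1, so the level of MTX1 is uncertain. The other 23 pseudogenes of import genes held at most 2.77% of the counts of their parent.

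Ratios between paired genes within a library do not depend on library scaling, and they separated the groups for 8 of 10 pairs. Each of these 8 had an exact two-sided permutation p of 0.1, the smallest that 3 against 3 allows, and 0.125 adjusted over the 10 pairs, so none can pass 0.05 in this design. Separation was common in these data: of all tested single genes 35.9% lay wholly below control after 5-FU and 38.4% wholly above. The share among other gene pairs was not computed, so the 8 of 10 cannot be read as particular to these pairs. TIMM23 over TIMM23B had log2 count ratios of 0.75, 0.66 and 1.14 in the 5-FU libraries, against 2.34, 2.03 and 2.70 in the control libraries. The difference was -1.50 (SE 0.24), and TIMM23 had 1.80 times the count of TIMM23B after 5-FU, against 5.12 times in control cells. TIMM10 over TIMM10B differed by -1.56 (SE 0.20), with 0.49 times the count after 5-FU and 1.44 times in control cells. Counts do not order these 2 genes, whose exonic lengths are 777 and 3041 bases. In CPM per kilobase of exonic length TIMM10 was above TIMM10B in both groups. The values were 16.1 against 8.39 after 5-FU and 53.8 against 9.54 in control cells. TIMM8A over TIMM8B differed in the other direction, by 1.28 (SE 0.29), with log2 ratios of 0.23, -0.45 and -0.74 after 5-FU against -1.53, -1.62 and -1.67 in control cells. The 5-FU libraries were spread widely for this pair, with replicate 1 farthest from control.

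Smaller separations were found for TOMM40 over TOMM40L with a difference of -0.91 (SE 0.17), TIMM17A over TIMM17B with -0.48 (SE 0.12) and MTX1 over MTX3 with -0.45 (SE 0.11). PMPCA over PMPCB differed by 0.53 (SE 0.13) on the log2 scale, with more counts for the noncatalytic subunit in both groups. Counts do not order PMPCA and PMPCB either, as their exonic lengths are 6590 and 4835 bases. In CPM per kilobase of exonic length PMPCA was above PMPCB after 5-FU, at 10.6 to 12.9 against 6.45 to 7.63. In control cells their ranges overlapped, at 18.9 to 23.9 for PMPCA against 18.3 to 19.1 for PMPCB. DNAJC15 over DNAJC19, alternative J-proteins of the motor that are not on the import gene list, differed by 0.60 (SE 0.12). MTX1 over MTX2 differed by 0.11 (SE 0.09, exact permutation p = 0.4) and GRPEL1 over GRPEL2 by -0.49 (SE 0.30, exact permutation p = 0.3), and both overlapped between the groups. Such p-values do not show that the members of these pairs changed alike.

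**Figure D4:**
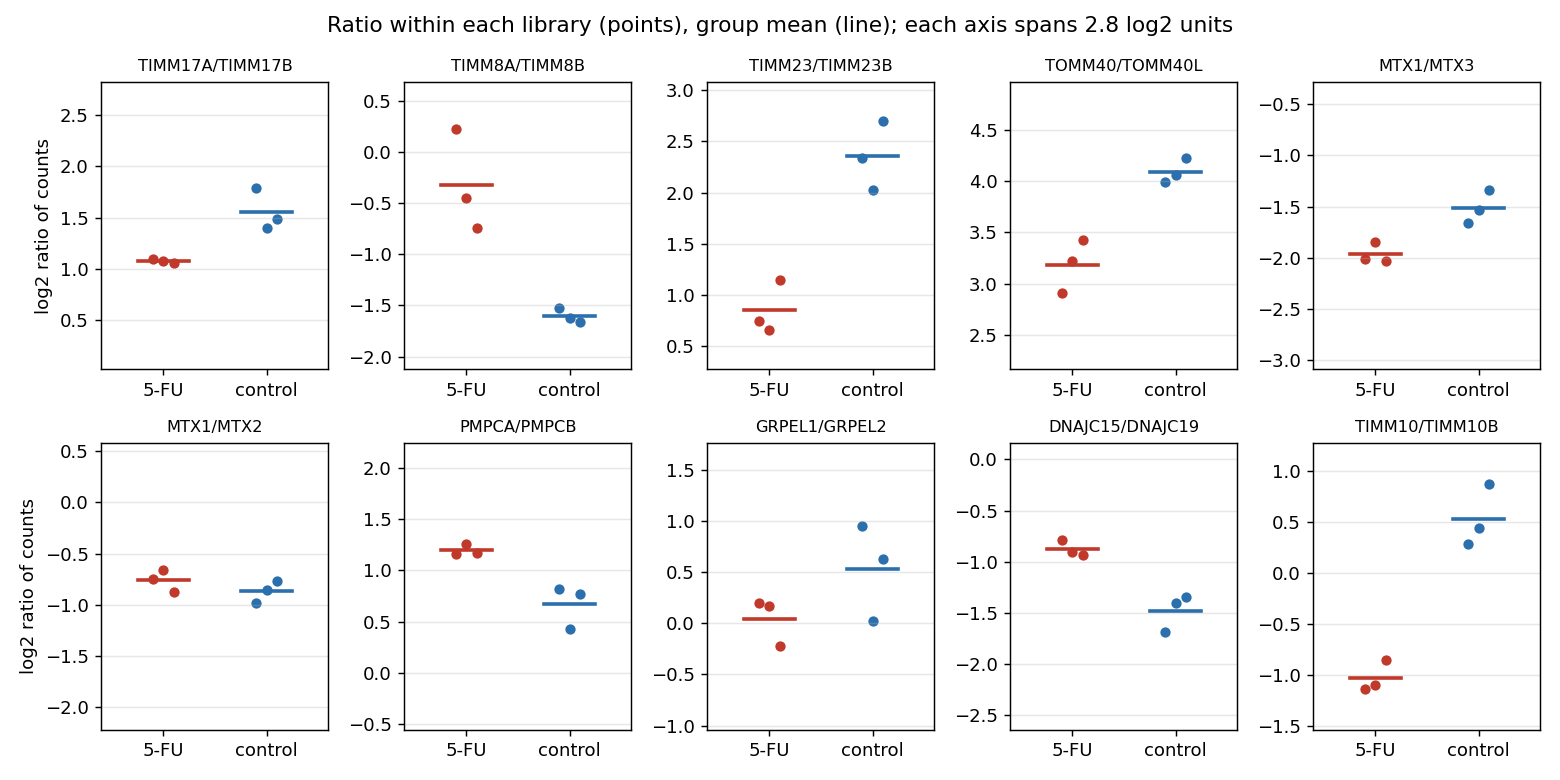
Log2 count ratio of the 10 gene pairs in each library, 5-FU beside control, with lines at the group means. TIMM23 over TIMM23B and TIMM10 over TIMM10B lie lower after 5-FU, TIMM8A over TIMM8B lies higher, and MTX1 over MTX2 and GRPEL1 over GRPEL2 overlap.

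Levels between genes were compared as CPM per kilobase of exonic length. That length includes bases shared with other genes, which hold almost no counts, so genes with shared exons are understated. TIMM8B with 32.3% of its exonic bases shared, TIMM13 with 28.9% and PAM16 with 21.9% could stand higher in the orders below. After 5-FU the order began with TOMM20 at 29.7, TOMM34 at 28.8, TIMM23 at 24.9, TOMM40 at 18.8, TOMM7 at 17.6 and TIMM10 at 16.1 CPM per kilobase. In control cells it began with TOMM20 at 89.0, TIMM23 at 74.5, TOMM34 at 57.0, TOMM40 at 56.3, TIMM10 at 53.8 and TOMM22 at 48.0 CPM per kilobase. Neighbours in these orders mostly overlapped, 32 of 33 neighbouring pairs after 5-FU and 25 of 33 in control cells. PAM16 stood at 13.5 CPM per kilobase after 5-FU and 4.65 in control cells.

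Several import genes start within 1000 bases of a gene on the opposite strand. TIMM8B shares its start region with SDHD, a subunit of respiratory complex II, and SDHD was lower too, at a log2 fold change of -1.69 (SE 0.15, edgeR adjusted p = 3.94e-06). The exons of TIMM8B overlap those of SDHD and NKAPD1 over 32.3% of their bases but not over coding bases. PMPCA lies beside ENTR1, which was lower at -0.81 (SE 0.13, edgeR adjusted p = 0.000208). CHCHD4 lies beside TMEM43, which was not called at -0.26 (SE 0.11, edgeR adjusted p = 0.0629), and MTX3 beside THBS4, which was higher at 1.15 (SE 0.28, edgeR adjusted p = 0.00337). Neighbours thus shared the direction of the import gene in some cases and not in others. TIMM10B and TIMM29, which were not called, lie beside ARFIP2 and YIPF2, which were not called either.

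Genes that work with the import machinery were read from 7 lists, chosen with earlier results of these data known, which hold 80 genes in all. Of 78 tested, 60 were lower, 4 were higher and 14 were not called, with a median log2 fold change of -1.07, beside 33.9% lower and a median of 0.09 over all tested genes. Of the 71 partner genes at a mean of 10 CPM or more, 58 were lower and 3 higher with a median of -1.14, beside 54.7% lower, 19.7% higher and a median of -0.42 over protein-coding genes of that level. Among motor and TIM23 partners 5 of 6 tested genes were lower, with HSPA9, the matrix HSP70 itself, at -1.12 (SE 0.15, edgeR adjusted p = 4.99e-05), DNAJC19 at -0.99 and ROMO1 at -0.83. Among folding and processing factors of the matrix 7 of 9 were lower, with the chaperonin pair HSPD1 at -2.18 and HSPE1 at -1.90 and the intermediate peptidase MIPEP at -1.57. HSPD1 averaged 268 ± 57.7 CPM after 5-FU and 1217 ± 236 CPM in control cells (SD, n = 3 each).

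Cytosolic chaperones and targeting factors had 13 of 16 genes lower, with NACA, a ribosome-bound subunit of the nascent polypeptide complex, at -1.50 and its partner BTF3 at -1.60. MTCH1, an outer membrane protein, was the exception called higher, at 0.61 (SE 0.13, edgeR adjusted p = 0.00135). The list of twin CX9C substrates of the disulfide relay had 18 of 22 genes lower and none higher, with a median of -1.24. That list also holds AIFM1, lower at -1.41, which has no twin CX9C motif. COA6, a copper factor of cytochrome oxidase assembly, was at -1.88, the mitoribosomal protein CHCHD1 at -1.77 and the MICOS subunit CHCHD3 at -1.76. Of MICOS and SAM partners 7 of 8 were lower, with the core subunit IMMT at -1.34 and APOO at -1.38.

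Mitochondrial proteases had 7 of 9 genes lower, with CLPP, the matrix protease, at -1.83 and its unfoldase CLPX at -1.19. SPG7, a subunit of the matrix-facing AAA protease, was higher, with 614, 618 and 521 CPM in the 5-FU libraries against 207, 169 and 190 CPM in the control libraries and a log2 fold change of 1.63 (SE 0.14, edgeR adjusted p = 3.12e-06). AFG3L2, which builds that protease with SPG7, was lower at -1.17 (SE 0.14, edgeR adjusted p = 1.85e-05), and was singled out after its value was seen. The annotated exons of SPG7 cover 36008 bases, against 6624 for AFG3L2. Which SPG7 transcripts gave its reads cannot be told apart in gene counts. Genes of import stress and mitophagy were mixed, with 5 of 10 tested genes lower, 2 higher and a median of -0.30. The kinase EIF2AK1 was lower at -1.14, and the stress factors ATF4 at -1.64 and ATF5 at -1.86 were lower as well. DDIT3, a stress-induced factor downstream of ATF4, was called higher, 2.23-fold (edgeR adjusted p = 0.0212), although its 43.7, 31.1 and 71.3 CPM after 5-FU overlapped the 9.87, 37.1 and 18.7 CPM in control cells. BNIP3, a mitophagy receptor, was called higher at 0.57 (SE 0.24, edgeR adjusted p = 0.0466), although its lowest 5-FU library, at 3.74 CPM, lay below its highest control library, at 3.80 CPM. The number of partner genes called higher ran between 2 and 11 over the alternatives.

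**Figure D5:**
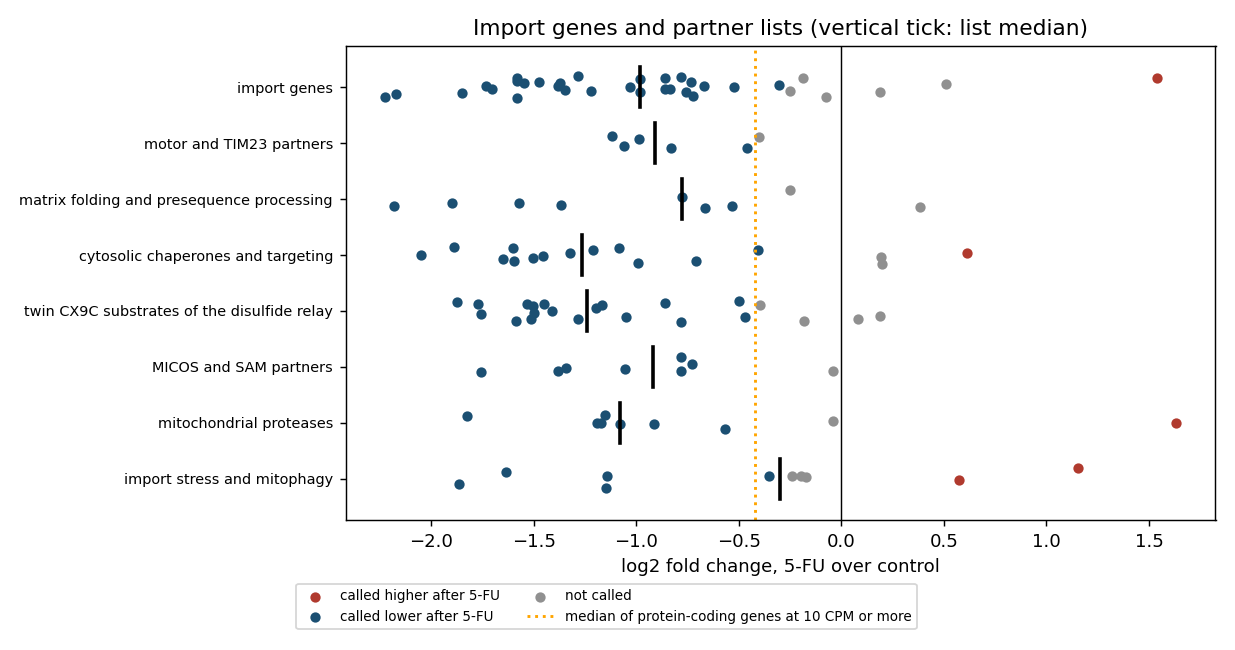
Log2 fold change, 5-FU over control, of each tested gene in the 7 partner lists and of the import genes, with the median of each list as a tick and a dotted line at -0.42, the median of protein-coding genes at 10 CPM or more. List medians run from -1.27 for cytosolic chaperones to -0.30 for import stress and mitophagy, and SPG7, MTCH1, DDIT3 and BNIP3 are the partner genes called higher.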

How the data were processed

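RNA of HCT-8 cells was sequenced in 6 libraries, grouped by the treatment label. The submitters' processing notes name HISAT2 2.0.5, GRCh38, featureCounts 1.5.0-p3, and DESeq2 1.16.1. Settings for strand and multi-mapped reads are not stated in those notes. Whole-number counts per gene were deposited for 58735 genes, whose identifiers and positions all match GENCODE release 29, and FPKM were deposited for the same genes. Depth was 18459939 to 23495607 counts per library. One edgeR 4.0.16 quasi-likelihood fit (R 4.3.3) covered all tested genes, with filterByExpr (minimum count 10, minimum total 15), TMM factors, group alone and Benjamini-Hochberg adjustment. Each SE is the size of the coefficient over the root of its F statistic. Pair ratios used log2 of counts plus 0.5 and exact permutation tests. The procedure was checked on simulated counts in which far fewer genes changed than were called here. That simulation held no shift in the mitochondrial share, so it does not bear on the choice of scaling factors.

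Alternatives were other scalings, count filters, DESeq2 1.42.0, limma-voom (limma 3.58.1), a replicate block, a length trend removed (span 0.3), each library left out, and limma on log2(FPKM + 1) or log2(FPKM + 0.1) with or without FPKM of at least 1 in 3 samples; fold changes on those scales understate low genes. Members, lists and tests were chosen with earlier results of these data known. All members are named; per-library values are given for the member of smallest p and of largest change in each complex, for each gene called higher, and for some others beside them. Of each partner list the 3 called genes of smallest p are named, except 1 gene that is not reported here though it counts in its list, with others said to be chosen after their values were seen or called higher. Exon overlap and shared 50-base words came from the GENCODE annotation and transcripts, promoters from RefSeq.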

Additional observations from a re-analysis of the deposited data

How the results depend on the processing

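Of the 34 tested import genes, 23 kept their direction and their side of the threshold under all 20 alternatives, and the import median relative to all genes ran between -1.76 and -0.75 (-1.08 in the main test). The number of lower import genes ran between 22 and 29. These settings moved the import median: it was -0.62 with upper-quartile factors, -0.49 with mitochondrial transcripts left out under plain totals (added after seeing the data) and -0.73 with a mean count of at least 50. Import genes called higher were 2, TOMM5 joining PAM16, under these settings, with plain library totals and without control replicate 1. Partner genes called higher were 8, 11 and 8 under the 3 settings, and 2 with DESeq2 and with each FPKM setting. Genes called lower and higher were 6783 and 7280 without mitochondrial transcripts under TMM, 3924 and 10762 without them under plain totals, and 4320 and 4268 were higher with filtered log2(FPKM + 1) and log2(FPKM + 0.1). Leaving out each library gave 13060 to 14104 genes called, 6318 to 6830 lower and 6639 to 7274 higher, 27 to 29 import genes lower and 1 to 2 higher, an import median of -1.08 to -0.86, and 56 to 61 partner genes lower and 2 to 4 higher. Some genes lost their direction under other settings, though none of them did with mitochondrial transcripts left out under TMM. Direction was lost by MTX3 (0.0546 upper quartile, 0.18 without mitochondrial transcripts under plain totals). It was also lost by TIMM10B (likewise 0.17 and 0.30, and 0.0653 with a mean count of at least 50) and TIMM29 (0.11, 0.24, 0.0013). TIMM23B lost it too (0.28, 0.40, 0.17, 0.03 with plain totals, and -0.3089 to 0.0902 leaving out each library). TOMM20L lost its direction at -0.51 with the length trend removed. Leaving out each library, TOMM20L ran from -0.0083 to 0.5403, below 0 without control replicate 1 or 3. The cause was not tested. The labels do not say whether the replicate numbers pair the samples. Deviations of same-numbered libraries correlated at -0.11, -0.28 and 0.08, and not every sample correlated best with its own number. With 3 libraries per group these correlations cannot decide whether samples were paired. The replicate block gave 13243 genes called, 27 import genes lower and a median of -0.97. Low counts limit TOMM20L and TOMM5.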
